A study of Homo sapiens with 15 samples.

Results

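The forkhead transcription factor genes FOXL2, FOXO1, FOXO3, FOXO4, FOXM1, FOXP1, FOXC1, FOXD1, FOXF2 and FOXS1 were followed across all arrays of the series. Every probe set whose annotation holds one of these 10 symbols and no other was taken, without regard to its signal. This gave 21 of the 54613 probe sets tested, for 9 genes. FOXP1 had 8 probe sets, FOXO3 had 4, FOXO1 had 3 and the other genes had 1 each. No probe set carried FOXC1 as its single symbol, so this gene was not analysed here, and 3 further probe sets shared between FOXO3 and FOXO3B were left out.

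Forkhead proteins bind DNA through a winged-helix domain and mostly recognise variants of a shared core motif. FOXL2 is the forkhead factor of ovarian granulosa cells and helps to keep them from taking on a testicular fate. FOXO1, FOXO3 and FOXO4 are held in the cytoplasm when AKT phosphorylates them, and in the nucleus they drive genes of cell cycle arrest, stress defence and cell death. FOXM1 is a factor of proliferating cells that drives genes of the G2 and M phases. FOXP1 is a repressor of the FOXP branch, and FOXC1, FOXD1, FOXF2 and FOXS1 are best known from mesenchymal and stromal lineages of the embryo.

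The study asked how mutant FOXL2 alters transcription in granulosa cell tumour lines, using 15 Affymetrix U133 Plus 2 arrays in 5 groups of 3. KGN, an adult-type line with 1 mutant and 1 wildtype FOXL2 allele, was seeded at passage 8 with 300000 cells per well and transfected with a single FOXL2 stealth RNAi product or with a GC matched control. COV434, a line without the mutation and regarded as juvenile-type, was seeded at passage 9 at the same density and received 1 µg of empty vector, pFOXL2wt or pFOXL2m. All groups received Lipofectamine, the complexes were taken off after 7 h, RNA was harvested at 24 h, and the 3 samples of a group were parallel transfections of 1 occasion, so p-values measure only the spread between such wells. No untransfected cells were analysed here, the siRNA does not separate the alleles of KGN, and the FOXL2 plasmids hold the coding sequence alone.

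All values are log2 signals, and levels were read within a probe set only. With no detection calls, a background level was taken from 141 probe sets for coding genes of olfactory receptors and hair keratin-associated proteins, as the 95th percentile of their mean signal in a line. This level was 5.30 for KGN and 5.05 for COV434. Of the granulosa markers, 9 of 14 measured lay above it in KGN, and 7 of 14 did in COV434. INHBA, FST, WT1, GATA4, HSD17B1 and KITLG lay above it in both lines. FOXL2, INHBB and CYP19A1 did so in KGN alone, and NR5A2 in COV434 alone. INHA, NR5A1, FSHR and AMHR2 lay below it in both lines. Of all probe sets, 43.5% lay above it in KGN and 40.5% in COV434. Theca and stromal markers gave 5 of 9 in both lines, Sertoli markers 4 of 7 and 3 of 7, and epithelial markers 5 of 10 and 4 of 10. Leukocyte markers gave 0 of 7 in KGN and 2 of 7 in COV434, and endothelial markers 2 of 7 in both. These counts do not name a cell type. One array stood apart. On empty vector replicate 1, the 3′ probe set of ACTB exceeded the 5′ probe set by 7.81, against 1.51 to 2.58 on the other 14 arrays, and the GAPDH difference was 4.67 against 0.10 to 1.08. Correlations within the empty vector group were 0.9773 to 0.9912, and those within the other COV434 groups were 0.9969 to 0.9978. Where leaving this array out changed the call of a member, the values with and without it are both given. For genes of the FOXO, FOXM1, FOXL2 and other forkhead lists, calls or counts with and without it are given, but the values with it are not always printed. The marker lists were read against background only, and their calls between groups are not counted here.

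FOXL2 is a single-exon gene on chromosome 3, at 138944224 to 138947137 of GRCh38.p14. The promoters of these genes were searched on both strands for the forkhead core, first spelled as GTAAAC and then in a second spelling as TAAACA. A single stretch can hold both, since the spellings overlap. RefSeq promoters of 300 bases, 250 before and 50 after each start site, were available for 16 starts of 8 members and not for FOXM1 or FOXS1. GTAAAC was held by 4 of these 16 and by 7.2% of all 35116 promoters, and TAAACA by 4 of 16 and 12.3%. Either motif was found in 6 of 16 starts, which belong to 4 genes, against 15.6% of all promoters. The stretches below show where a forkhead core lies beside forkhead genes themselves, in capitals, with 10 bases on each side. They are written 5′ to 3′ along the strand of each gene, so that a core on the opposite strand appears as its reverse complement.
FOXL2, chr3:138947231-138947256, minus strand, 109 bases upstream of the start: tgtgcggggcGTTTACaaaaagtgac
FOXO3, chr6:108560674-108560699, plus strand, 233 bases upstream of the start: gagcgaaacaTAAACAaacgcacgca
FOXO4, chrX:71095864-71095890, plus strand, from base 24 of the transcript: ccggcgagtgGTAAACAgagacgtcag
FOXP1, chr3:71245254-71245280, minus strand, 193 bases upstream of the start: actatgttatTGTTTACtttaccatac
These matches are letters in a window, and no binding was measured.

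FOXL2 was lower in KGN after knockdown and was the one forkhead gene called. Its single probe set gave 8.13, 7.91 and 8.18 on the control arrays and 6.24, 6.33 and 6.32 on the knockdown arrays. All 3 knockdown values lay below all 3 control values, and all 6 lay above the KGN background level. The mean fell from 8.07 ± 0.15 to 6.30 ± 0.05 (SD, n = 3), which is a log2 difference of -1.77 with a standard error of 0.10, or 3.42-fold lower (limma, adjusted p = 0.000556). It was the single call among the 21 probe sets, and 0.273% of all probe sets were called in this comparison. In bulk RNA, fewer cells that hold a transcript and less of it per cell cannot be told apart.

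In COV434 the same probe set lay near the bottom of the range. It gave 2.68, 2.83 and 3.11 with empty vector, 2.62, 2.52 and 2.67 with wildtype FOXL2, and 2.62, 2.62 and 2.47 with mutant FOXL2. All 9 values were below the COV434 background level of 5.05, and both FOXL2 groups lay just under the empty vector group. The differences from empty vector were -0.27 for wildtype (adjusted p = 0.448) and -0.31 for mutant FOXL2 (adjusted p = 0.333), and neither passed, nor did they without empty vector replicate 1 (-0.37 and -0.41, adjusted p = 0.0953 and 0.0702). The study places this probe set in the 3′ untranslated region of the gene, which the plasmids lack, so it says nothing about how much FOXL2 the transfected cells made. By RT-qPCR and Western blotting, the study itself reports FOXL2 raised with both plasmids.

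**Figure D1:**
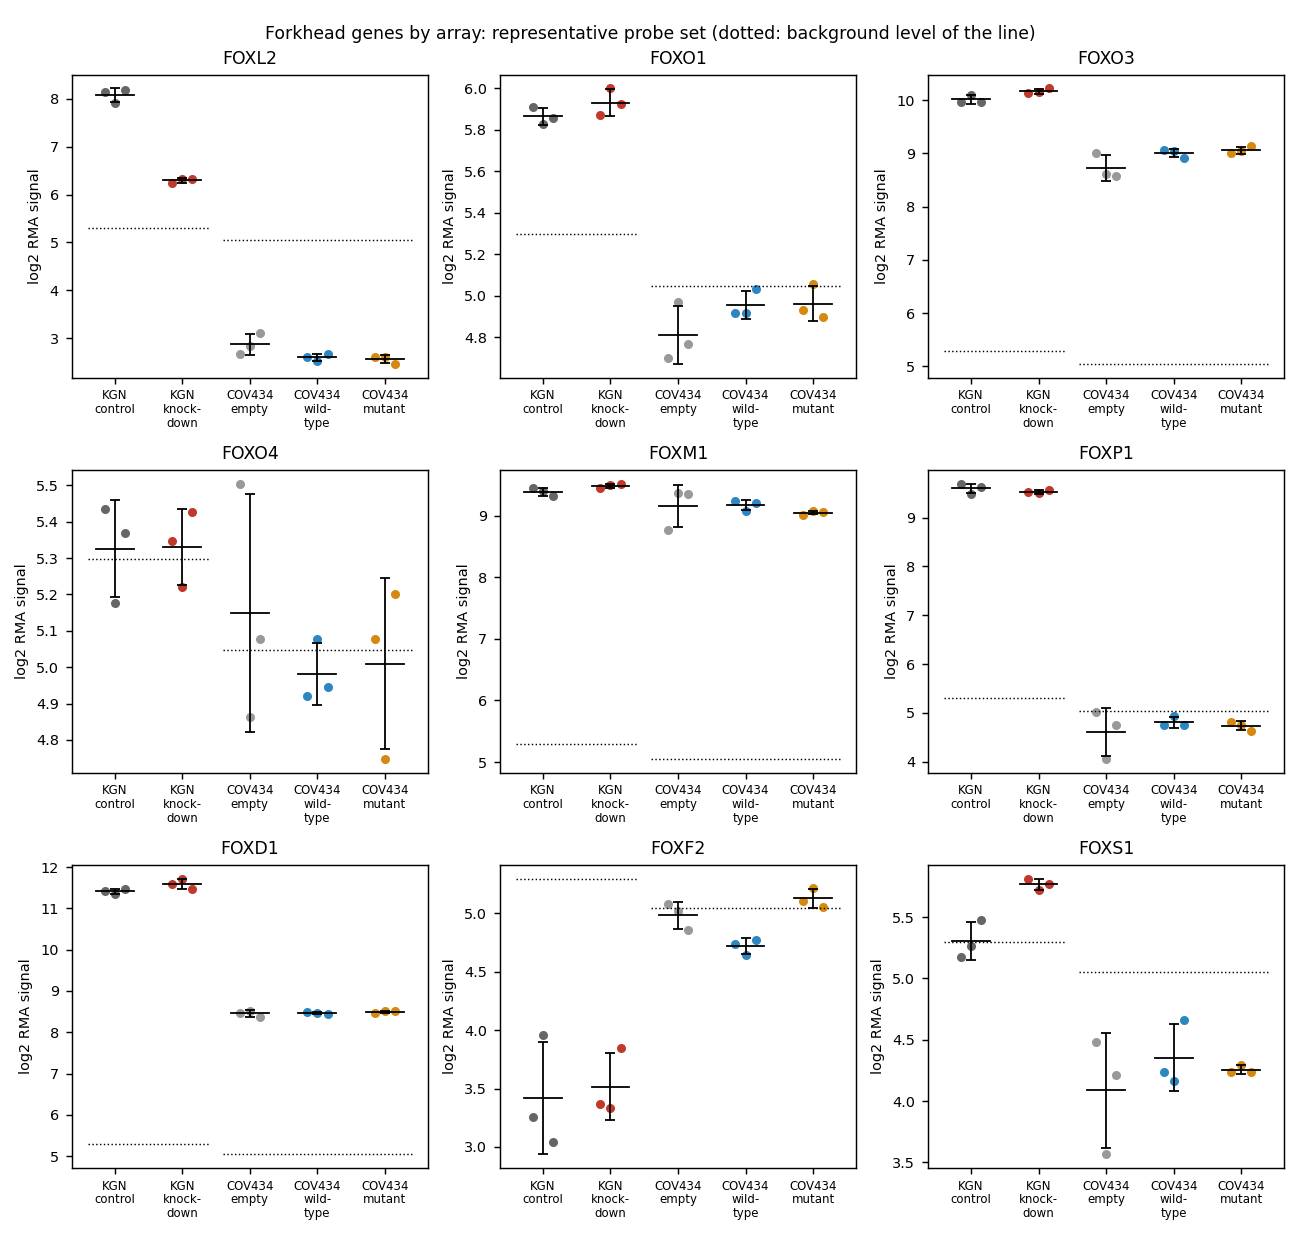
Each panel plots the log2 RMA signal (y axis) of the brightest probe set of a forkhead gene on every array (points, 3 per group), with the mean and SD of each group and, dotted, the background level of its line, 5.30 in KGN and 5.05 in COV434. FOXL2 shows the widest gap between the 2 KGN groups, and FOXO3, FOXM1, FOXD1 and FOXS1 also do not overlap there. FOXL2, FOXP1 and FOXD1 lie farthest apart between the lines, and FOXO1, FOXO3 and FOXS1 lie apart by less. FOXF2 is the one gene with lower values in KGN. The y axes differ between panels and do not start at 0.

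FOXO3 was well expressed in both lines, with its brightest probe set above background on every array, and it did not pass with all arrays in any comparison within a line. In KGN it gave 9.97, 10.10 and 9.97 on the control arrays and 10.13, 10.16 and 10.22 after knockdown. The knockdown values all lay above the control values, yet the difference was only 0.16 with a standard error of 0.08 (95% interval -0.04 to 0.35, adjusted p = 0.732). Its other 3 probe sets differed by 0.01 to 0.07.

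In COV434 the first FOXO3 probe set gave 9.00, 8.61 and 8.57 with empty vector, 9.06, 9.04 and 8.92 with wildtype FOXL2, and 9.00, 9.05 and 9.13 with mutant FOXL2. Empty vector replicate 1, the array with the high 3′ to 5′ differences, gave the 9.00 and lay among the FOXL2 arrays. With all arrays, wildtype FOXL2 exceeded empty vector by 0.28 (standard error 0.12, adjusted p = 0.446) and mutant FOXL2 by 0.34 (0.12, adjusted p = 0.316). Without that array the differences were 0.42 (standard error 0.09, 1.34-fold, adjusted p = 0.0443) and 0.48 (0.09, 1.39-fold, adjusted p = 0.0349), and both passed. Over the alternatives tried, the adjusted p ranged from 0.0443 to 0.776 for wildtype and from 0.0349 to 0.639 for mutant FOXL2. Leaving the array out raised the share of all probe sets called from 0% to 2.3% for wildtype and to 2.99% for mutant FOXL2.

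None of the other 3 FOXO3 probe sets passed with all arrays, where they differed from empty vector by -0.02, 0.67 and 0.21 with wildtype FOXL2 and by 0.04, 0.48 and 0.16 with mutant FOXL2. The last 2 thus had the same sign as the first in both comparisons, and on the last, which was below background on all 9 arrays, the wildtype values lay above all empty vector values. Without empty vector replicate 1 they differed from empty vector by -0.15, 0.35 and 0.18 with wildtype FOXL2 and by -0.09, 0.17 and 0.13 with mutant FOXL2, and again none passed. The third gave 5.24, 5.91 and 6.44 on the empty vector arrays, a wide spread with its lowest value on replicate 1. The part of RNA quality in these values was not tested. Both comparisons use the same empty vector arrays, so their values do not count as independent. Between mutant and wildtype FOXL2, the first probe set differed by 0.05 (95% interval -0.22 to 0.33, adjusted p = 1).

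**Figure D2:**
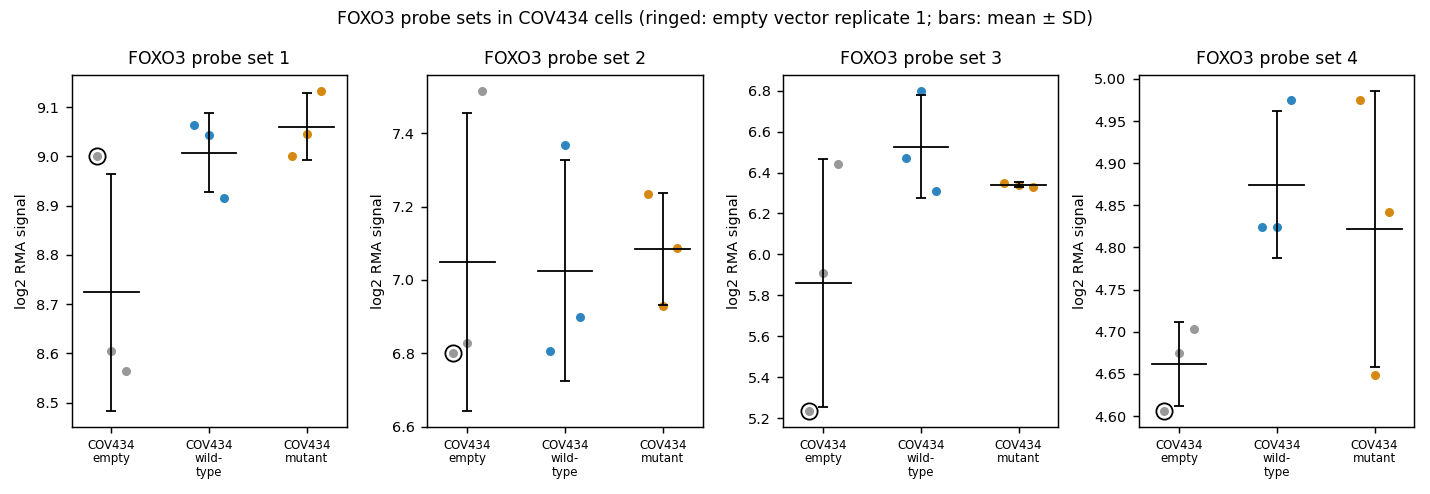
Log2 RMA signal (y axis) of the 4 FOXO3 probe sets on the 9 COV434 arrays (points), with the mean and SD of each group of 3; empty vector replicate 1 is ringed. On probe set 1 the ringed array, at 9.00, lies with the FOXL2 arrays and away from 8.61 and 8.57, and on probe set 3 it is the lowest of all, at 5.24; the y axes differ between panels and do not start at 0.

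FOXO1, a FOXO factor studied for its part in granulosa cells, lay little above background in KGN. Its brightest probe set gave 5.91, 5.83 and 5.86 in KGN control cells and 5.87, 6.0 and 5.92 after knockdown, with overlapping groups and a difference of 0.07 (95% interval -0.12 to 0.25, adjusted p = 0.897). In COV434 it stayed between 4.70 and 5.06, with a single mutant FOXL2 array above the background level. The second FOXO1 probe set was above background in KGN at 5.61 ± 0.15 in control cells, and the third was below it in both lines. FOXO1 differed from empty vector by 0.14 with wildtype and 0.15 with mutant FOXL2 at the brightest probe set, and neither passed.

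FOXO4, the X-linked member of the same branch, sat at the edge of background. It gave 5.43, 5.18 and 5.37 in KGN control cells and 5.35, 5.22 and 5.43 after knockdown, and the difference was 0.00 with a 95% interval of -0.22 to 0.23. In COV434 it lay between 4.75 and 5.51, and the highest of these values was that of empty vector replicate 1.

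The genes around the FOXO factors were read from lists. The FOXO regulators are kinases such as AKT1, SGK1 and MAPK8 and other proteins such as YWHAZ, SKP2, USP7, EP300 and SIRT1. None of 19 measured FOXO target genes and none of 16 regulators was called by limma after knockdown. Of all genes, 0.511% were called at their brightest probe set. At an unadjusted p under 0.05 there were 5 of 19 and 1 of 16, against 8.19% of all genes. Uncalled genes of these and the following lists are examples chosen after their values were seen. TXNIP, an inhibitor of thioredoxin and a FOXO target, had the largest size of difference among the targets, at -0.39 (standard error 0.09, adjusted p = 0.208), and CCNG2, a cyclin of cell cycle exit, differed by 0.32 (0.09, adjusted p = 0.371). With all arrays none of either list was called by limma with wildtype or mutant FOXL2 against empty vector, where 0% of all genes were. At an unadjusted p under 0.05 there were 2 of 19 and 2 of 16 with wildtype (11.5% of all genes) and 3 of 19 and 3 of 16 with mutant FOXL2 (14.2% of all genes). CDKN1A, the cell cycle inhibitor p21, differed by 0.39 with wildtype (adjusted p = 0.335) and 0.65 with mutant FOXL2 (adjusted p = 0.128).

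Some of these genes were called once empty vector replicate 1 was left out, all of them higher. The share of all genes called was then 1.75% higher and 1.06% lower with wildtype, and 2.02% higher and 1.6% lower with mutant FOXL2. With wildtype FOXL2, 2 of 19 FOXO targets passed, CCNG2 at 0.70 (adjusted p = 0.0271) and CDKN1B, the cell cycle inhibitor p27, at 0.65 (adjusted p = 0.0233). With mutant FOXL2, 3 of 19 passed, CCNG2 at 0.87 (adjusted p = 0.0252), CDKN1B at 0.60 (adjusted p = 0.0282) and CDKN1A at 0.51 (adjusted p = 0.0279). Of the regulators SIRT1, a deacetylase of FOXO proteins, passed at 0.48 with wildtype (adjusted p = 0.0373) and 0.45 with mutant FOXL2 (adjusted p = 0.0408), against 0.16 and 0.13 with all arrays. The part of RNA quality in these values was not tested.

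FOXM1 was bright in all groups. Its single probe set gave 9.45, 9.40 and 9.33 in KGN control cells and 9.45, 9.51 and 9.52 after knockdown. The lowest knockdown value and the highest control value both round to 9.45, and the difference of 0.10 (95% interval -0.09 to 0.28, adjusted p = 0.832) did not pass. In COV434 it gave 8.76, 9.37 and 9.35 with empty vector, 9.24, 9.08 and 9.21 with wildtype, and 9.02, 9.08 and 9.06 with mutant FOXL2. The mutant values lay just below the wildtype values, by 0.13 on average (95% interval -0.47 to 0.21, adjusted p = 1). The lowest value was that of empty vector replicate 1. Mutant FOXL2 differed from empty vector by -0.11 with that array (adjusted p = 0.779) and by -0.31 without it (adjusted p = 0.0755).

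Of 18 FOXM1 target genes, all of them measured, none was called after knockdown, and 0 had an unadjusted p under 0.05. None was called by limma with either FOXL2 plasmid against empty vector, with 2 of 18 and 4 of 18 at an unadjusted p under 0.05, against 11.5% and 14.2% of all genes. With mutant FOXL2 the median difference of the list was -0.14, against -0.01 over all genes. CENPE, CENPF and UBE2C, which serve chromosome segregation, differed by -0.42, -0.37 and -0.31 (adjusted p = 0.197, 0.21 and 0.241). With empty vector replicate 1 left out, NEK2, a centrosome kinase, was called higher and CDC20, an activator of the anaphase-promoting complex, lower with wildtype FOXL2 (0.47 and -0.42, adjusted p = 0.0315 and 0.0381). With mutant FOXL2 the same array left out gave NEK2 at 0.41, CDC20 at -0.40 and CENPF at -0.43 (adjusted p = 0.0396, 0.0396 and 0.0387), so that 1 was called higher and 2 lower.

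FOXP1 was read by 8 probe sets, 6 of them above background in KGN and none in COV434. The probe set that was brightest averaged over the 15 arrays gave 9.68, 9.49 and 9.63 in KGN control cells and 9.52, 9.5 and 9.56 after knockdown, with overlapping groups and a difference of -0.08 (95% interval -0.27 to 0.12, adjusted p = 0.885). Over the 8 probe sets the knockdown differences ran from -0.17 to 0.19 and none passed. In COV434 the same probe set lay between 4.06 and 5.01 on all 9 arrays, under the background level, as did the group means of the other 7. Another of the 8 was higher than empty vector on all arrays of both FOXL2 groups, by 0.26 and 0.27, but at signals between 3.38 and 3.96. The sixth went the other way, also below background. It differed by -0.21 with wildtype FOXL2, with all values under empty vector, and by -0.19 with mutant FOXL2. None of these differences passed.

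FOXD1, a factor of stromal progenitors in the embryonic kidney, was above background on every array. It gave 11.42, 11.35 and 11.46 in control cells and 11.60, 11.71 and 11.46 after knockdown. The lowest knockdown value and the highest control value both round to 11.46, and the difference was 0.18 (95% interval -0.03 to 0.39, adjusted p = 0.715). In COV434 all 9 values lay between 8.37 and 8.52, and no group differed from another by more than 0.04.

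FOXS1 had, after FOXL2, the next-lowest p in the knockdown. Its single probe set gave 5.17, 5.27 and 5.48 in control cells and 5.81, 5.72 and 5.77 after knockdown. All knockdown values exceeded all control values, and only 1 control array was above the background level of 5.30 while all 3 knockdown arrays were. The difference was 0.46 (standard error 0.10, 95% interval 0.24 to 0.69, 1.38-fold), with an unadjusted p of 0.00114 and an adjusted p of 0.176 by limma, so it did not pass. The adjusted p ranged from 0.0737 to 0.777 over the alternatives. In COV434, FOXS1 stayed below background, between 3.57 and 4.66, and did not pass in any comparison.

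FOXF2, a mesenchymal factor of the gut wall and palate, was below background in KGN, between 3.04 and 3.96, and near it in COV434. It gave 5.08, 5.02 and 4.85 with empty vector, 4.74, 4.65 and 4.78 with wildtype FOXL2, and 5.11, 5.22 and 5.06 with mutant FOXL2. All wildtype values lay under all empty vector values and under the background level of 5.05, and all mutant values lay above it. Mutant exceeded wildtype FOXL2 by 0.41 (standard error 0.10, 95% interval 0.19 to 0.62, 1.33-fold), with an unadjusted p of 0.00182 and an adjusted p of 1 by limma, so the difference did not pass. Wildtype FOXL2 differed from empty vector by -0.26 (adjusted p = 0.395) and mutant FOXL2 by 0.15 (adjusted p = 0.545). Over the alternatives the difference between mutant and wildtype stayed between 0.36 and 0.44 and the adjusted p between 0.796 and 1.

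**Figure D3:**
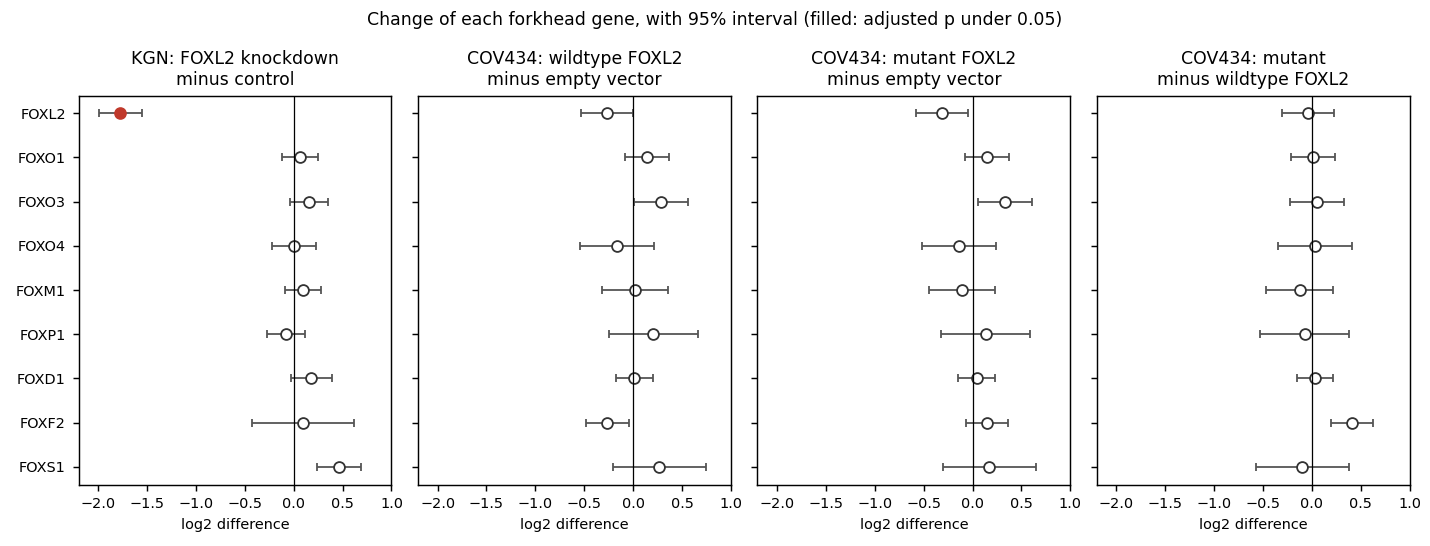
Log2 difference (x axis) of the brightest probe set of each of 9 forkhead genes (y axis) in 4 comparisons, with the 95% interval from limma; filled points have an adjusted p under 0.05. FOXL2 after knockdown, at -1.77, is the one filled point. Without passing the adjusted test, the intervals of FOXS1 after knockdown, FOXO3 with wildtype and with mutant FOXL2, and FOXF2 between mutant and wildtype lie above 0, and those of FOXL2 with both plasmids and FOXF2 with wildtype lie below 0.

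Counts over the members stood as follows. After knockdown, 2 of 21 probe sets, FOXL2 and FOXS1, had an unadjusted p under 0.01, as did 2.11% of all probe sets. In 5 of 21 the groups did not overlap, which held for 13.8% of all probe sets. With wildtype FOXL2 none was called by limma, where 0% of all probe sets were, 5 of 21 had an unadjusted p under 0.05 (11.1% of all) and 5 of 21 did not overlap (13.4% of all). With mutant FOXL2 none was called, again against 0%, and the counts were 3 of 21 (13% of all) and 2 of 21 (14.5% of all). Without empty vector replicate 1, FOXO3 was the 1 call with each plasmid, and 6 of 21 had an unadjusted p under 0.05 with wildtype (21.6% of all) and 4 of 21 with mutant FOXL2 (22.8% of all). Between mutant and wildtype FOXL2 none was called, against 0% of all probe sets, 1 of 21 had an unadjusted p under 0.05 (1.11% of all), and 2 of 21, FOXF2 and FOXM1, did not overlap (8.03% of all). The median size of the differences in the knockdown was 0.10 for the members and 0.08 for all probe sets. The exact permutation test cannot go below 0.1 with 3 arrays against 3. It gave 0.1 for every member probe set whose groups did not overlap, so it does not set FOXL2, FOXS1 or FOXF2 apart.

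Of 34 other forkhead genes, 30 were measured, and with all arrays none was called by limma in any of the 4 comparisons within a line. At an unadjusted p under 0.05 there were 3 after knockdown (8.19% of all genes), 3 with wildtype FOXL2 (11.5%), 7 with mutant FOXL2 (14.2%) and 0 between mutant and wildtype (1.01%). The median difference after knockdown was 0.00, against 0.01 over all genes. FOXC2, a factor of vessel and mesenchyme formation, differed by 0.51 after knockdown (standard error 0.14, adjusted p = 0.358), and FOXO6, the remaining FOXO gene, by 0.44 with wildtype (adjusted p = 0.328) and 0.52 with mutant FOXL2 (adjusted p = 0.199). Without empty vector replicate 1, FOXH1, a partner of SMAD2 in activin signalling, was called higher with wildtype (0.63, adjusted p = 0.031) and with mutant FOXL2 (0.63, adjusted p = 0.0303), and FOXK1 and FOXO6 were called higher with mutant FOXL2 (0.50 and 0.59, adjusted p = 0.049 and 0.0485).

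Among genes reported as FOXL2 targets, 2 of 19 measured were called higher after knockdown and none lower, against 0.268% and 0.243% of all genes. The study names SMAD6, SOX9, SOX4 and ATF3, all on this list, from these same arrays, so the count is not independent of these data. At an unadjusted p under 0.05 there were 4 of 19, against 8.19% of all genes. STAR and CYP19A1, for which the study reports a significant rise and fall after knockdown, did not pass the adjusted threshold used here. The study gives a p-value for each gene and states no adjustment, while the threshold here is adjusted over all probe sets. The criteria are thus unlike, and this does not speak against the study's result. SOX9, the Sertoli cell factor that opposes FOXL2 in the gonad, rose from 7.42 to 8.01 (difference 0.60, standard error 0.08, adjusted p = 0.0232). The study had already reported this SOX9 rise from the same arrays. IER3, an early-response gene of cell survival, rose from 7.93 to 8.45 (0.53, 0.08, adjusted p = 0.0413). None of 9 measured FOXL2 partner genes, such as the SMAD factors, GATA4 and ESR1, was called, with 1 at an unadjusted p under 0.05. With all arrays no member of either list was called by limma with either plasmid against empty vector or between the plasmids. SMAD3, which carries activin and TGF-β signals and binds FOXL2, differed by 0.45 with wildtype (adjusted p = 0.282) and by 0.80 with mutant FOXL2 (adjusted p = 0.125). Without empty vector replicate 1 it was called with mutant FOXL2 (0.71, adjusted p = 0.0263) and not with wildtype (0.35, adjusted p = 0.0825), and SIRT1, which is also on the target list, was called with both as given above.

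The largest differences among the forkhead genes were between the control cells of the lines. FOXL2, FOXP1 and FOXD1 were far higher in KGN, FOXO1, FOXO3 and FOXS1 were higher by less, and FOXF2 was the one gene called lower. Of 21 probe sets 17 were called, 16 higher and 1 lower in KGN, for 7 genes. The background was high, since 51.8% of all probe sets were called, 38.7% higher and 13.1% lower, and line, vector or siRNA, and passage cannot be told apart. Counting values equal in every deposited digit, pairs of KGN arrays shared 21 to 93, pairs of COV434 arrays 1012 to 4295, and pairs across the lines none. Whether RMA was run on each line by itself is not stated, so levels set across the lines are given under 3 scalings. The median of all probe sets was 0.27 higher in KGN as deposited, -0.07 after quantile normalization of the 6 arrays together and -0.22 after median centring. The share of all calls that were higher in KGN was 74.7%, 43.1% and 32.4% under these scalings, and 17, 16 and 15 of the 21 probe sets were called, of which 16, 15 and 14 were higher. The share of all probe sets called was 44.1% after quantile normalization and 51.2% after median centring.

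FOXL2 was higher in KGN by 5.20 (standard error 0.15, 36.7-fold, adjusted p = 5.1e-08) and by 4.88 after quantile normalization. FOXP1 differed by 5.00, 5.93 and 4.48 at its first 3 probe sets and by 0.53 to 2.86 at the other 5. All 8 were called as deposited, and the seventh, at 0.53 and below background in both lines, was not called after quantile normalization (0.06, adjusted p = 0.826) or median centring. FOXD1 was higher by 2.95 (standard error 0.11, 7.74-fold, adjusted p = 2.28e-07), with values of 11.35 to 11.46 against 8.37 to 8.52, all above background. For FOXL2 and FOXP1 the COV434 values lay under background, where differences are compressed.

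The FOXO genes differed by less, and not at every probe set. The first FOXO3 probe set was higher in KGN by 1.29 (standard error 0.15, adjusted p = 0.000187) and FOXO1 by 1.05 (0.12, adjusted p = 0.000185). The FOXO3 difference was 0.98 after quantile normalization and 0.79 after median centring, and FOXO1 gave 0.59 and 0.56, all of which passed. The second FOXO3 probe set, above background on all arrays, differed by 0.49 (adjusted p = 0.0988) as deposited and by -0.01 after median centring. The third FOXO1 probe set, below background in both lines, differed by 0.26 (adjusted p = 0.252) as deposited and by -0.20 after quantile normalization. FOXO1 was below background in COV434 at every probe set by its mean over the arrays of the line. FOXO4 differed by 0.18 (adjusted p = 0.432) as deposited, and by -0.32 after quantile normalization and -0.32 after median centring. It passed only without empty vector replicate 1, at 0.36 (adjusted p = 0.0487, against 0.0487 to 0.878 over the alternatives), when 57.7% of all probe sets were called. FOXM1 differed by 0.23 (adjusted p = 0.301) as deposited and by -0.09 and -0.26 under the other scalings. Neither gene has a direction between the lines that holds under all scalings.

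FOXS1 was higher in KGN by 1.22 (standard error 0.23, adjusted p = 0.00275) as deposited, and by 0.74 and 0.72 under the other scalings (adjusted p = 0.0281 and 0.0256). Only 1 of the 3 KGN control arrays and none of the COV434 arrays was above background. FOXF2 was lower in KGN by 1.57 on the log2 scale as deposited, a difference of -1.57 (standard error 0.23, 2.96-fold, adjusted p = 0.00073), and of -1.99 and -2.06 under the other scalings. Its values were 3.25, 3.96 and 3.04 in KGN against 5.08, 5.02 and 4.85 in COV434. The KGN values were all under background and those of COV434 close to it.

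**Figure D4:**
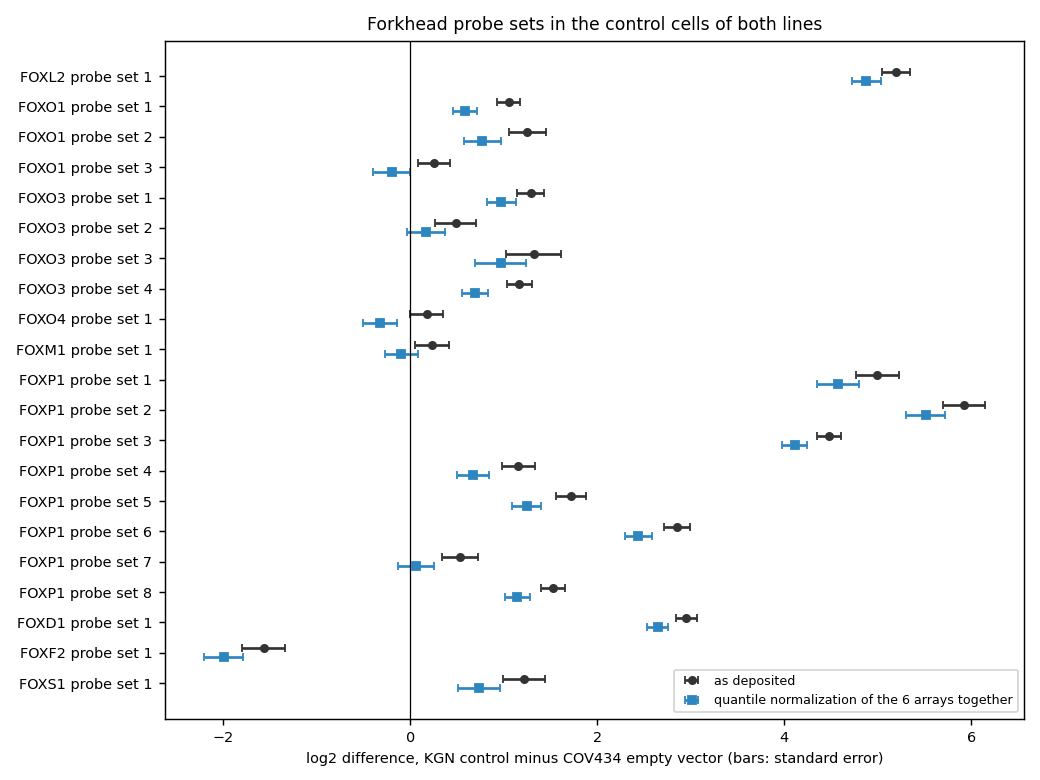
Log2 difference of KGN control cells minus COV434 empty vector cells (x axis, bars: standard error) for the 21 forkhead probe sets (y axis), as deposited (circles) and after quantile normalization of the 6 arrays together (squares). FOXL2, the first 3 probe sets of FOXP1 and FOXD1 lie farthest to the right under both scalings, FOXF2 is the one probe set far to the left, and FOXO4, FOXM1 and the third probe set of FOXO1 change sign.

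Seen over the 5 groups, the members fell into different orders. By the mean over all arrays of a line, 17 of 21 probe sets were above background in KGN and 5 of 21 in COV434, against 43.5% and 40.5% of all probe sets. The 17 came from 8 genes, all but FOXF2, and the 5 from FOXO3, FOXM1 and FOXD1. FOXL2 had the order KGN control, KGN knockdown, then the COV434 groups, in which the 2 KGN groups lay apart beyond the spread between arrays, empty vector lay just above the other COV434 groups without passing, and wildtype and mutant FOXL2 overlapped. For FOXP1 and FOXD1 the groups of a line overlapped or touched and the lines stood apart. For FOXM1 the 2 lines met, since KGN control values began at 9.33 and COV434 empty vector values reached 9.37.

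Genes whose pattern over the 5 groups was most like that of FOXL2 were found by the root mean square difference between centred group means, over 19774 genes. The closest were MDFIC at 0.31, COL5A1, a chain of collagen V, at 0.35, CSF2RB, the common beta chain of several cytokine receptors, at 0.42, LBH at 0.44 and SLC16A14, of the monocarboxylate transporter family, at 0.44. MDFIC went from 9.84 in KGN control cells to 8.69 after knockdown and lay between 5.15 and 5.38 in the COV434 groups. Of the forkhead genes, FOXP1 came closest, at rank 107 with 0.59, and FOXD1 next, at rank 748 with 0.96. FOXF2 was the farthest member, at rank 19024. These ranks rest on 5 group means, which the difference between the lines dominates, and the COV434 values of FOXL2 and FOXP1 lay below background, so the exact distances and ranks carry little weight.

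Of 30 other forkhead genes measured, 14 were called higher and 3 lower in KGN, against 39.7% and 16.8% of all genes. FOXC2 was higher by 4.38 (standard error 0.20, adjusted p = 6.96e-07) and FOXH1 by 2.23. FOXN3, a repressor of the cell cycle checkpoint group, was lower by 2.28 on the log2 scale.

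The same shares, 39.7% higher and 16.8% lower, are the background for the other lists. Of the FOXO targets, 11 of 19 were higher and 4 lower in KGN, with TXNIP at 6.60 and GADD45A, a stress and growth arrest gene, at 3.18 and with CCNG2 at -1.73. Of the FOXO regulators, 9 of 16 were higher and 1 lower, led by SGK1, a kinase that phosphorylates FOXO proteins, at 4.27. Of the 18 FOXM1 targets 1 was higher and 2 lower, and their median was -0.23, against 0.26 over all genes. Of the FOXL2 targets, 12 of 19 were higher and 2 lower. FST, which binds activin, differed by 6.61 and STAR, which carries cholesterol into mitochondria, by 4.0, while NR5A2, a nuclear receptor of granulosa cells, differed by -6.79. Of the FOXL2 partners 5 of 9 were higher and 1 lower, with SMAD3 at 4.03 and DDX20 at -2.10. Without empty vector replicate 1, when 43.8% of all genes were called higher and 19.7% lower, the FOXM1 targets gave 2 higher and 9 lower, the other forkhead genes 14 and 5, and the other 4 lists differed from these counts by at most 1 in each direction. All these counts are as deposited and carry the scaling limit given above.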

How the data were processed

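Values were log2 signals that the authors made with RMA and background correction in R and deposited after quality control with AffyQCReport; no versions are stated. Probe sets were named from the platform annotation, with 41091 of 54613 holding 1 symbol, 1801 several and 11721 none after 62 array controls were removed. Genes followed RefSeq identifiers where these matched. The probe set with the highest mean over 15 arrays stands for a gene. The members and gene lists were chosen with earlier results of these data known, and the lists were written from general knowledge.

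Groups were compared with lmFit and eBayes of limma 3.58.1 in R 4.3.3 (two-sided, Benjamini-Hochberg over all probe sets, threshold 0.05). The knockdown fit held 6 arrays, the COV434 fit 9 and the comparison of lines 6. Each probe set of the members was also tested with an exact permutation test in each comparison. Arrays have no depth, and their number limits the precision. Alternatives were a filter on dim probe sets, trended and robust moderation, array weights, median centring, quantile normalization, 1 fit of all arrays, the compared groups alone, the mean of a gene's probe sets and leaving out each array. Named genes are all members, called genes of the lists other than the marker lists, drawn from the 4 with the largest change, and the 5 genes most like FOXL2. The measured granulosa markers are all named, and other list genes were chosen after their values were seen.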

Additional observations from a re-analysis of the deposited data

How the results depend on the processing

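The FOXL2 decrease kept its direction and its call under every alternative, at -1.86 to -1.72 when single arrays were left out, and the count of forkhead probe sets called after knockdown was 1 throughout. Leaving out single arrays gave 0 to 1 calls for wildtype and for mutant FOXL2 against empty vector, the 1 being FOXO3 without empty vector replicate 1, 0 between mutant and wildtype FOXL2, and 16 to 18 between the lines. Over all probe sets, the knockdown gave 149 calls, 46 to 120 without single arrays (the lowest without control replicate 3), 378 with trended and robust moderation and 267 among probe sets above background. With 1 fit of all arrays, wildtype and mutant FOXL2 gave 60 and 261 calls over all probe sets where the COV434 fit gave 0, and no member was among them. Signals near or below background limit what FOXL2, FOXO1, FOXO4, FOXP1, FOXF2 and FOXS1 can show in COV434.

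The signs that turned belonged to differences not called as deposited with all arrays; 1 of them, FOXO4 between the lines, was called without empty vector replicate 1. With array weights, FOXO4 after knockdown was -0.022 and FOXM1 with wildtype FOXL2 -0.098. With the mean of a gene's probe sets, FOXO1 after knockdown was -0.066, and between mutant and wildtype FOXL2, FOXO1 was -0.0100, FOXO3 -0.032 and FOXP1 0.015. With median centring, FOXM1 and FOXD1 with wildtype FOXL2 were -0.0076 and -0.012, FOXO1 between mutant and wildtype was -0.0060, and FOXO4 and FOXM1 between the lines were -0.32 and -0.26. With quantile normalization the last 2 were -0.32 and -0.093.

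Leaving out single arrays moved FOXO4 and FOXF2 after knockdown over -0.070 to 0.060 and -0.092 to 0.37. With wildtype FOXL2 against empty vector the ranges were -0.31 to 0.011 for FOXO4, -0.18 to 0.12 for FOXM1, -0.067 to 0.41 for FOXP1 and -0.028 to 0.046 for FOXD1. With mutant FOXL2 against empty vector they were -0.28 to 0.039 for FOXO4, -0.14 to 0.34 for FOXP1, -0.00010 to 0.075 for FOXD1 and -0.090 to 0.37 for FOXS1. Between mutant and wildtype FOXL2 they were -0.079 to 0.012 for FOXL2, -0.041 to 0.044 for FOXO1, -0.069 to 0.16 for FOXO4 and -0.19 to 0.056 for FOXS1. The cause of these turns was not tested. No paired analysis was possible because the labels give no replicate numbers. The replicate numbers used here follow the order of the samples in the series.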
